A study of Mus musculus with 6 samples.

Results

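The D cyclins and the inhibitors of their kinases were examined in mouse embryos, in molar tooth germs of the lower jaw and in oral tissue beside them. The group holds 7 genes of 19057 on the array, chosen by name as the 3 D cyclins (Ccnd1, Ccnd2, Ccnd3) and 4 cyclin-dependent kinase (CDK) inhibitors (Cdkn1a, Cdkn1b, Cdkn1c, Cdkn2c). They are read by 20 of 45281 probes, and the brightest of a gene by its mean signal served as its main probe. All embryos were of the outbred CD-1 stock at embryonic day 13.5, untreated and without an engineered allele named in the labels. Each of 3 litters gave 1 library titled tooth germ, the whole molar bud with its epithelium and mesenchyme. Each litter also gave 1 library titled oral tissue, from mandibular tissue described as free of tooth and bone. Each library pooled tissue over several mice, so n = 3 per tissue counts pools, not embryos.

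D cyclins bind CDK4 and CDK6 in the first gap phase of the cell cycle. The complex phosphorylates the retinoblastoma protein and its relatives, which releases E2F transcription factors and opens the way to DNA synthesis. Inhibitors of the Cip/Kip family (p21, p27 and p57, the products of Cdkn1a, Cdkn1b and Cdkn1c) bind cyclin-CDK complexes, and those of the INK4 family, such as p18 from Cdkn2c, bind CDK4 and CDK6 themselves. In teeth, Cdkn1a is known as a gene of the enamel knot, a cluster of epithelial cells that leave the cell cycle and signal to their neighbours. Cdkn1a and Cdkn1c are also known for cell cycle exit in differentiating muscle.

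The labels contradict each other, since the source and tissue fields swap the 2 tissues relative to the titles and descriptions. The libraries are called here by title, and all signs below would flip under the other fields. By title, the dental mesenchyme gene Msx1 was higher in tooth germ (log2 difference 1.47, adjusted p = 6.25e-05), as was the epithelial ligand Shh (0.78, adjusted p = 0.00218), and the muscle genes Myod1 (-1.47, adjusted p = 1.56e-05) and Acta1 (-1.94, adjusted p = 7.71e-05) were lower. Values are signals on the authors' log scale, treated as log2, whose median over all probes was 7.01 and whose range was 6.61 to 14.88. Differences are tooth germ minus oral tissue on that scale, tested with limma over all 19057 genes with Benjamini-Hochberg adjustment, and called means an adjusted p under 0.05. In whole tissue, fewer cells of a type and less RNA per cell cannot be told apart.

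RefSeq start-site windows (GRCm38.p6, 250 bases before to 50 after each start) were listed for 4 of the 7 genes, with 7 windows in all. Both Ccnd3 windows are shown because the Ccnd3 probes carry different transcript accessions, and both Cdkn1a windows because one of them holds the letters of the p53 motif, the 10-letter unit that p53 binds as a pair. All lie on the plus strand and read from 5′ to 3′. Capitals mark matches on either strand to GGGCGG (GC box), TGACG (part of a cyclic AMP response element) and the p53 motif. The shares of 32851 such windows with at least 1 match were 35.7%, 20.8% and 8.36%.
Ccnd3 at chr17:47504801-47505100: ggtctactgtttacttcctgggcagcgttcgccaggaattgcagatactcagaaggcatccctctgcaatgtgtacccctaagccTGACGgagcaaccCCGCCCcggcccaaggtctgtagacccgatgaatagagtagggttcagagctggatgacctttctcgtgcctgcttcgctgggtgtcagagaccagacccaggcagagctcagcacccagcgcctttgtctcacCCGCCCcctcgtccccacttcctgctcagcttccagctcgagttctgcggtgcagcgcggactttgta
Ccnd3 at chr17:47593217-47593516: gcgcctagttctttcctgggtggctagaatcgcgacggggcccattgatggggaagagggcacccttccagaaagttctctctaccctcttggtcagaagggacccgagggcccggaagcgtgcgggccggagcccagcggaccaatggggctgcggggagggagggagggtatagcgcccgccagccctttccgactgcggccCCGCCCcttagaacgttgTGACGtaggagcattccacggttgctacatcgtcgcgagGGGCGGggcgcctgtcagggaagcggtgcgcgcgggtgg
Cdkn1a at chr17:29090729-29091028: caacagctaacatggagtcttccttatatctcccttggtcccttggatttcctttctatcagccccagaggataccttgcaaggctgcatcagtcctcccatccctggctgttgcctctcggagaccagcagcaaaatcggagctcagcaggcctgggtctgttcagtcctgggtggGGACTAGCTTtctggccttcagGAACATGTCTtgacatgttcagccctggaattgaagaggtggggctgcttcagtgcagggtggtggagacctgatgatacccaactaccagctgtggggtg
Cdkn1a at chr17:29093519-29093818: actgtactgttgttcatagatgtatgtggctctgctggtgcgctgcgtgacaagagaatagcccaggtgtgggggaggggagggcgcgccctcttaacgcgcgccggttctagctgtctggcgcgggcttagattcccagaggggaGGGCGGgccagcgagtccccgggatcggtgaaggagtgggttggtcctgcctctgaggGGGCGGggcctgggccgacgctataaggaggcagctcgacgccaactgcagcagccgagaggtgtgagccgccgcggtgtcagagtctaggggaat
Each Ccnd3 window held 2 GC boxes and 1 TGACG match. The first Cdkn1a window held 2 p53 motifs, starting 73 and 51 bases before the annotated start, and no GC box, and the second held 2 GC boxes and no p53 motif. The p53 motifs do not overlap each other. These matches describe letters and were not tested for any link to expression.

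All 3 D cyclins differed between the tissues, and not in the same direction. Ccnd2 was higher in tooth germ by 1.44-fold, while Ccnd1 and Ccnd3 were higher in oral tissue by 1.30-fold and 1.25-fold. None of the 4 inhibitors was called by limma without the litter pairing. Even so, 3 of them (Cdkn1b, Cdkn1c and Cdkn2c) had an unadjusted p under 0.05, as did 17.1% of all genes. So 3 of 7 members were called, where 5.81% of all genes were called, 2.39% higher and 3.42% lower in tooth germ. A limma fit with litter as a block called 4 members, adding Cdkn1c (adjusted p = 0.0338), and 8.88% of all genes. One with litter as a random effect called 3 members and 1430 genes. The groups did not overlap for 6 of the 7 genes, against 23.1% of all genes, and 6 had the same sign in all 3 litters, against 41.4% of all genes.

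**Figure D1:**
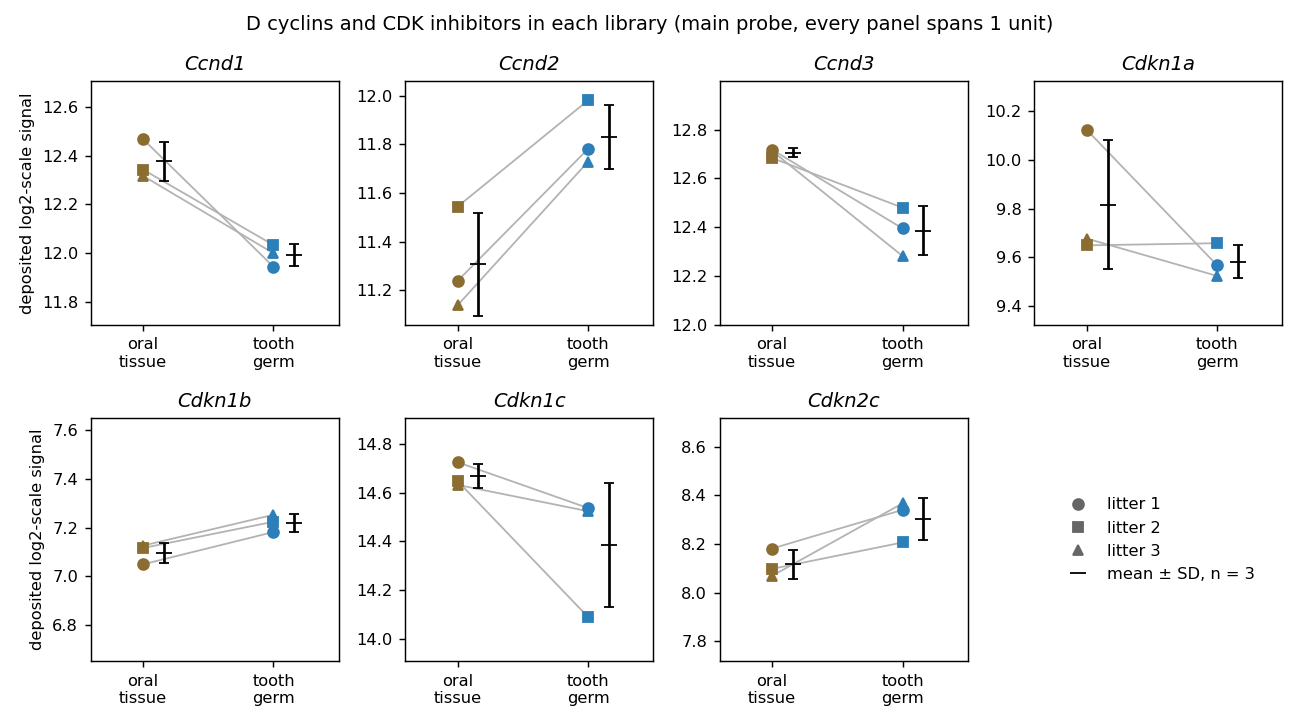
Signal of each of the 7 genes in every library (main probe, deposited log2-scale signal on the vertical axis, each panel spanning 1 unit), with lines joining the 2 libraries of a litter and bars giving the mean ± SD (n = 3). Ccnd2 rises along every line, Ccnd1 and Ccnd3 fall along every line, and the Cdkn1a groups overlap.

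Ccnd1, the D cyclin best known as a target of mitogen and Wnt signals, read 12.47, 12.34 and 12.32 in oral tissue libraries 1 to 3 and 11.94, 12.03 and 12.00 in tooth germ libraries 1 to 3. The lowest oral library lay above the highest tooth germ library, and the litter differences were -0.52, -0.31 and -0.32. Ccnd1 fell by 0.38 on the log2 scale (SE 0.071, 95% interval -0.54 to -0.23, adjusted p = 0.00662). The second probe, of similar brightness, also fell, by 0.44 (adjusted p = 0.0219 over all probes). The dimmer probe, with a mean signal of 9.91, differed by -0.31 and was not called (adjusted p = 0.182). All 3 Ccnd1 probes were lower in tooth germ in every litter. The call was lost without both libraries of litter 1 (-0.31, adjusted p = 0.143) and kept in the other 18 alternatives.

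Ccnd2, the D cyclin prominent in many embryonic progenitors, read 11.24, 11.54 and 11.14 in oral tissue and 11.78, 11.98 and 11.73 in tooth germ. Litter 2 was the highest of its group in both tissues, and every tooth germ library lay above every oral library. The litter differences of 0.54, 0.44 and 0.59 lay closer together than the levels did. Ccnd2 rose by 0.52 on the log2 scale (SE 0.11, 95% interval 0.28 to 0.76, adjusted p = 0.0141), and with litter as a block the adjusted p was 3.36e-04. A second probe for the same accession rose by 0.58 (adjusted p = 0.0144 over all probes). The other 2 probes, annotated to cDNA clone accessions, differed by 0.025 and 0.036 at mean signals of 8.30 and 7.0, and neither was called (adjusted p = 0.958 and 0.736). Averaging all 4 probes lowered the difference to 0.29 and ended the call (adjusted p = 0.122). The call was also lost without oral library 1 (0.49, adjusted p = 0.0569), oral library 3 (0.44, adjusted p = 0.0585) or tooth germ library 2 (0.45, adjusted p = 0.0588). It was lost as well without litter 1 (0.51, adjusted p = 0.132) or litter 3 (0.49, adjusted p = 0.0711), and without the variance trend (adjusted p = 0.0539).

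Ccnd3, the D cyclin known for its persistence in differentiating muscle and blood cells, read 12.72, 12.68 and 12.71 in oral tissue and 12.39, 12.48 and 12.28 in tooth germ. The oral libraries had an SD of 0.018 (n = 3) and the tooth germ libraries one of 0.10, and the groups did not overlap. Ccnd3 fell by 0.32 on the log2 scale (SE 0.070, 95% interval -0.47 to -0.17, adjusted p = 0.0190), with litter differences of -0.32, -0.20 and -0.43. The main probe carries the accession NM_007632. Both probes of the other transcript, NM_001081636, were dimmer and were not called, at -0.26 (mean signal 9.17, adjusted p = 0.129) and -0.067 (mean signal 7.17, adjusted p = 0.540). The RefSeq windows above show 2 start sites for the gene, and which start belongs to which accession was not analysed here. The mean of the 3 probes differed by -0.21 and was not called (adjusted p = 0.0806). The call was lost without oral library 1 (adjusted p = 0.0711), oral library 3 (adjusted p = 0.0691), tooth germ library 1 (adjusted p = 0.0606) or tooth germ library 3 (adjusted p = 0.0520), at differences from -0.32 to -0.27. It was lost as well without litter 1 (adjusted p = 0.176) or litter 3 (adjusted p = 0.137).

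**Figure D2:**
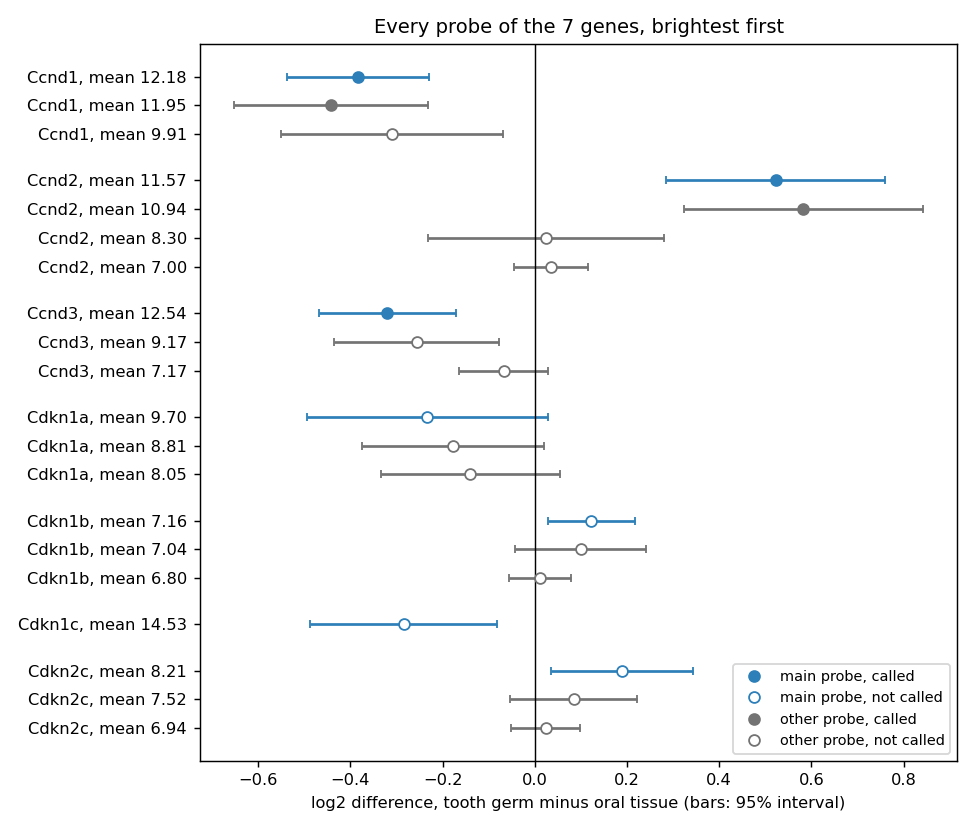
Log2 difference (tooth germ minus oral tissue) of each of the 20 probes with its 95% interval, grouped by gene with the brightest probe first and its mean signal in the label. Filled points are called over all probes, 2 of Ccnd2 on the right and 3 of Ccnd1 and Ccnd3 on the left, and the dimmest probe of each gene with several probes is not called.

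Over all 20 probes, 2 were called higher and 3 lower in tooth germ, where 4.18% of the 34885 probes with 1 gene symbol were called, 1.69% higher and 2.49% lower. No gene had probes called in opposite directions. The change of Ccnd1 relative to Ccnd2 within an array was -0.91, with litter values of -1.07, -0.75 and -0.91. That of Ccnd2 relative to Ccnd3 was 0.84, at 0.87, 0.64 and 1.02 in the 3 litters. Ccnd1 relative to Ccnd3 changed by -0.064, with litter values of -0.20, -0.11 and 0.11. In a two-sided exact permutation test of 3 arrays against 3 these gave p = 0.1, 0.1 and 0.5, where 0.1 is the smallest p the design allows, and p = 0.15, 0.15 and 0.6 after Benjamini-Hochberg adjustment over 6 pairs of members. The opposite direction of Ccnd2 therefore held in every litter and did not pass this test, which could not have reached 0.05.

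Among the Cip/Kip inhibitors, Cdkn1c had the brightest probe of the group. Cdkn1c encodes p57, an imprinted inhibitor expressed from the maternal allele. Its single probe read 14.73, 14.65 and 14.63 in oral tissue and 14.54, 14.09 and 14.52 in tooth germ, close to the 14.88 at which the deposited values end. The groups did not overlap, and tooth germ library 2 stood below the other two. The difference was -0.28 (SE 0.10, 95% interval -0.50 to -0.066, adjusted p = 0.147), and with litter as a block it was called (SE 0.074, adjusted p = 0.0338), in a fit that called 8.88% of all genes. With litter as a random effect Cdkn1c was not called (SE 0.091, adjusted p = 0.0892), and it was 1 of 4 members not called in that fit. Without tooth germ library 2 the difference was -0.14 (adjusted p = 0.273). Whether a probe this bright still responds in proportion was not tested.

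Cdkn1a, which encodes p21, the inhibitor known as a p53 target, read 10.12, 9.65 and 9.68 in oral tissue and 9.57, 9.66 and 9.52 in tooth germ. The groups overlapped, and oral library 1 stood above the other five. The difference was -0.23 (SE 0.12, 95% interval -0.49 to 0.026, adjusted p = 0.353), and -0.080 without oral library 1 (adjusted p = 0.769). The other 2 probes differed by -0.18 and -0.14 and were not called either (adjusted p = 0.396 and 0.525).

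Cdkn1b, which encodes p27, an inhibitor controlled largely through protein turnover, had its main probe near the median of all probes. It read 7.05, 7.12 and 7.13 in oral tissue and 7.18, 7.22 and 7.25 in tooth germ. The groups did not overlap and the litter differences were 0.13, 0.11 and 0.13, yet the difference of 0.12 was not called (SE 0.043, 95% interval 0.028 to 0.22, adjusted p = 0.147). The remaining probes, at mean signals of 7.04 and 6.80, differed by 0.099 and 0.011. At this brightness a difference may be understated.

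Cdkn2c, which encodes the INK4 inhibitor p18, read 8.18, 8.10 and 8.07 in oral tissue and 8.34, 8.21 and 8.37 in tooth germ. The tooth germ libraries all lay above the oral libraries, with litter differences of 0.16, 0.11 and 0.30. The difference of 0.19 was not called (SE 0.074, 95% interval 0.026 to 0.35, adjusted p = 0.203), and its dimmer probes differed by 0.084 and 0.023.

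Within the Cip/Kip family, the change of Cdkn1b relative to Cdkn1c was 0.41, with a value above 0 in 3 of 3 litters, and that of Cdkn1a relative to Cdkn1b was -0.36, below 0 in each litter. Both gave p = 0.1 in the exact permutation test (p = 0.15 after adjustment over the 6 pairs). Cdkn1a relative to Cdkn1c changed by 0.051 (exact permutation p = 0.9). None of these contrasts between inhibitors passed.

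The genes with which the members work were taken from 9 lists. Over all 19057 genes the median difference was 0.0026, and 51.8% of genes had a difference above 0. None of 11 kinase partners and E cyclins was called by limma, and the median of the list was 0.063. Cdk4 differed by 0.23 (adjusted p = 0.148) and Cdk6 by 0.14 (adjusted p = 0.0665). Cdk6 was called in 4 of 19 alternatives. These were litter as a random effect (adjusted p = 0.0394), median centring (0.0498), removal of dim probes (0.0458) and the mean of all probes (0.0409). Cdk6 has 1 probe, so averaging probes left its own values unchanged and altered only other genes in the fit. That probe averaged 7.04 in oral tissue and 7.18 in tooth germ, near the median of all probes (7.01). Cdc25a, the phosphatase that activates CDK2, read 8.73, 8.72 and 8.88 in oral tissue and 8.93, 9.24 and 9.26 in tooth germ. Its difference of 0.36 was not called (adjusted p = 0.0554) and was called with litter as a block (adjusted p = 0.0114), where it was the 1 gene of the list called, and in 4 other alternatives (adjusted p from 0.0158 to 0.0493). None of the 4 remaining inhibitors (Cdkn2a, Cdkn2b, Cdkn2d, Cdkn3) was called by limma, with differences from 0.00096 to 0.12. Cdkn2b averaged 6.96 in both tissues, below the median of all probes (7.01), so a difference may go unseen. Cdkn2a, at 7.18 in oral tissue and 7.22 in tooth germ, lay near that median.

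Among 13 pocket proteins and E2F factors 1 fell, 0 rose and 12 were not called, at a list median of 0.0043. That gene was Rb1, which encodes the retinoblastoma protein, the substrate of D cyclin complexes. Rb1 read 9.70, 9.31 and 9.38 in oral tissue and 8.77, 8.70 and 8.58 in tooth germ, so that every tooth germ library lay below every oral library. Rb1 fell by 0.78 on the log2 scale (SE 0.11, adjusted p = 8.42e-04), or 1.72-fold higher in oral tissue, and a second probe fell by 0.51. The call was kept in all 19 alternatives. Its relatives Rbl1 and Rbl2 differed by 0.030 and -0.016 and were not called (adjusted p = 0.913 and 0.867). Rbl2 averaged 6.90 in oral tissue and 6.88 in tooth germ, below the median of all probes (7.01), so a difference may go unseen.

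None of 19 S phase and mitosis genes was called by limma, in either direction. Their median difference was 0.13, and 16 of the 19 had a difference above 0. Ccnb2 (6.82 in oral tissue and 6.78 in tooth germ) and Bub1 (6.81 and 6.84) lay below the median of all probes (7.01). At that signal a difference may go unseen. The helicase genes Mcm6 and Mcm7 differed by 0.25 and 0.24 (adjusted p = 0.183 and 0.189), and the replication clamp gene Pcna by 0.11 (adjusted p = 0.716). The other 3 Mcm6 probes differed by -0.031, 0.21 and 0.0043, and the mean of all its probes by 0.11 (adjusted p = 0.638). Mcm6 was called without tooth germ library 3 (0.35, adjusted p = 0.0273), and Mcm7 with the mean of all probes (0.25, adjusted p = 0.0449). Of 13 genes for turnover of D cyclins and inhibitors none was called by limma (median -0.0099). Fbxw8, an F-box gene, differed by -0.23 (adjusted p = 0.169), while its second, dimmer probe differed by 0.033 and the mean of both by -0.096 (adjusted p = 0.431). Dtl, an adaptor for destruction of p21 and other proteins, differed by 0.11 (unadjusted p = 0.0467), with litter differences of 0.15, -0.0015 and 0.18. Its second, dimmer probe differed by 0.037 (adjusted p = 0.758 over all probes). Unadjusted p-values under 0.05 were reached by 4 of the 11 kinase partners and E cyclins, 0 of the 4 inhibitors, 5 of the 19 S phase and mitosis genes and 2 of the 13 turnover genes, against 17.1% of all genes.

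**Figure D3:**
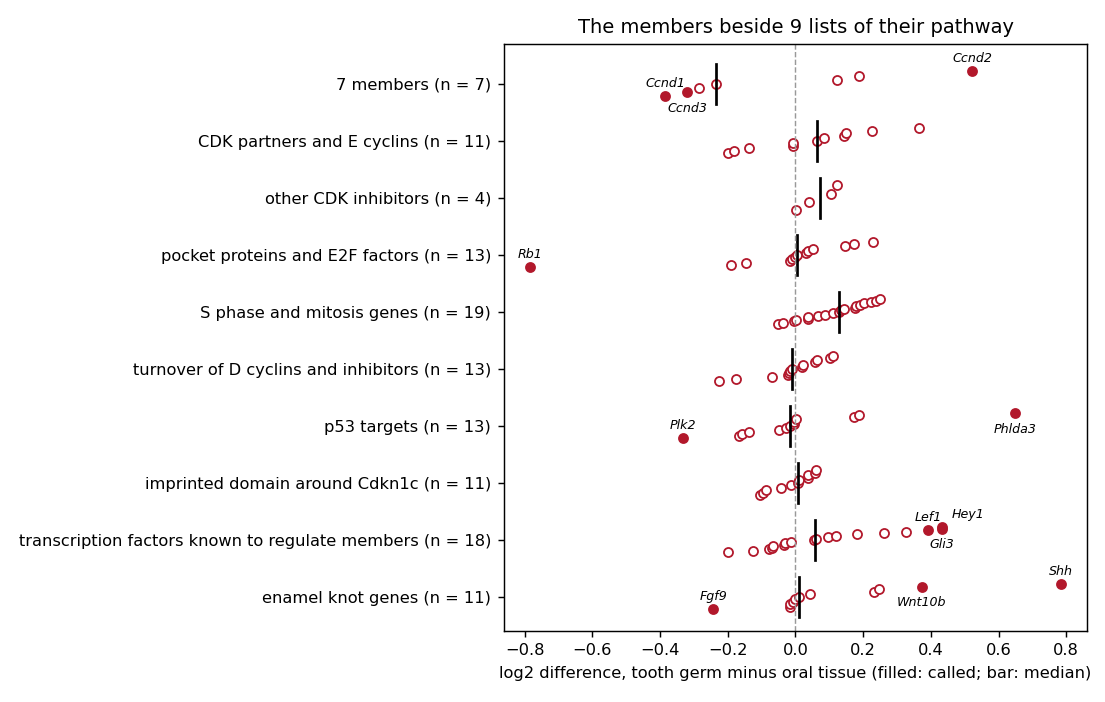
Log2 difference (tooth germ minus oral tissue, horizontal axis) of the 7 members and of every measured gene in 9 lists of their pathway, with filled points for called genes and a bar at each list's median. Rb1 at -0.78 lies apart from the other pocket proteins and E2F factors, and the bar of the S phase and mitosis genes stands at 0.13 with no called gene.

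Of 13 p53 target genes 1 rose, 1 fell and 11 were not called (median -0.015). Phlda3, an inhibitor of Akt, rose by 0.65 (adjusted p = 8.46e-04), and its second probe rose by 0.42. The call of Phlda3 was kept in all 19 alternatives, at differences from 0.54 to 0.72. The kinase gene Plk2 fell by 0.33 (adjusted p = 0.0483) and lost its call in 10 of 19 alternatives, among them every removal of a single library other than oral library 2, with adjusted p-values up to 0.308. Mdm2, the feedback inhibitor of p53, differed by -0.047 (adjusted p = 0.820). None of 11 genes listed for the wider imprinted region around Cdkn1c was called by limma, and 0 of them had an unadjusted p under 0.05. Their differences ran from -0.11 to 0.060. Tspan32 and Ascl2 had the smallest p-values of the list (adjusted p = 0.308 and 0.414), with group means below the median of all probes (7.01). Igf2, also on the list, differed by 0.036 (adjusted p = 0.884).

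Of 18 transcription factors known to regulate D cyclins or their inhibitors 3 rose, 0 fell and 15 were not called (median 0.059). These were Hey1, a Notch target (0.43, adjusted p = 0.0153), Gli3, a hedgehog effector (0.43, adjusted p = 0.0153), and Lef1, a Wnt effector (0.39, adjusted p = 0.0483). Hey1 was lost without oral library 1 or tooth germ library 1 or 2 (adjusted p = 0.0703, 0.0762 and 0.0531), and without litter 1 (0.244). Gli3 was lost without oral library 2 or 3 or tooth germ library 1 or 2 (adjusted p = 0.0572, 0.0511, 0.0778 and 0.0617), and without litter 1 or 2 (0.146 for each). Its second, dimmer probe differed by 0.15 and was not called (adjusted p = 0.187 over all probes). Lef1 was lost in 10 of 19 alternatives, including removal of any single library other than tooth germ library 3, with adjusted p-values up to 0.295. The other 3 Lef1 probes were dimmer, differed by 0.093, -0.018 and 0.032 and were not called, and the mean of all 4 differed by 0.12 (adjusted p = 0.193). With litter as a block 4 factors were called, the added one being the Notch target Hes1 (0.33, adjusted p = 0.0982 without the block and 0.0250 with it). The uncalled factors Mycn, Gli1 and Foxo4 had group means from 6.79 to 6.87, below the median of all probes, where a difference may go unseen. Of 11 enamel knot genes 2 rose, 1 fell and 8 were not called (median 0.011). Among the uncalled, Fgf4, Fgf20, Bmp2, Edar, Msx2 and Slit1 had group means from 6.79 to 6.95. These lie below the median of all probes (7.01) in both tissues, where a difference may go unseen. Besides Shh, the ligand gene Wnt10b rose by 0.37 (adjusted p = 0.00542, lost without litter 1 or 3 at adjusted p = 0.0641 and 0.0747), and the ligand gene Fgf9 fell by 0.24 (adjusted p = 0.0322), a call lost without oral library 1 or 3 or any one tooth germ library (adjusted p from 0.0868 to 0.113), or without litter 1, 2 or 3 (up to 0.263). A second, dimmer Wnt10b probe differed by 0.015 (adjusted p = 0.866 over all probes), and the mean of both rose by 0.19 (adjusted p = 0.0305). The other Fgf9 probe, also dimmer, differed by -0.17 and was not called (adjusted p = 0.088 over all probes). With litter as a block 3 enamel knot genes were called higher and 1 lower, the added one being the Wnt inhibitor Dkk4 (0.23, adjusted p = 0.101 without the block and 0.00717 with it).

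Markers of other cell types moved with the tissues. Of 14 skeletal muscle genes 13 fell and 1 was not called (median -1.84), and their mean signal ran from 10.52 to 11.13 in oral tissue and from 9.15 to 9.37 in tooth germ. Of 11 surface epithelium genes 6 rose and 1 fell (median 0.43), with mean signals of 9.71 to 9.83 and 10.20 to 10.31. Of 9 dental mesenchyme genes 5 rose and 0 fell (median 0.51), with mean signals of 9.38 to 9.83 and 10.29 to 10.51. Of 7 macrophage and leukocyte genes 6 fell (median -0.54), of 5 tendon and connective tissue genes 3 fell (median -0.97), of 7 neuronal genes 3 fell (median -1.09), of 7 endothelial genes 1 fell (median -0.18) and of 3 Schwann cell and glia genes 1 fell (median -0.052). Of 7 cartilage genes 1 rose (median 0.0063), and none of 4 osteoblast and 4 erythroid genes was called by limma (medians 0.21 and -0.063). The cartilage gene was Matn3 (0.13, adjusted p = 0.0223), at 6.85 in oral tissue and 6.98 in tooth germ, below the median of all probes. With dim probes removed no cartilage gene was called. The osteoblast list mean was uneven, at 9.79, 10.54 and 9.52 in oral tissue and 10.44, 9.62 and 10.40 in tooth germ. Its gene Ibsp read 12.13, 13.35 and 11.62 in oral tissue, although that tissue was described as free of bone. In tooth germ Ibsp read 12.70, 10.88 and 12.96. With litter as a block 7 dental mesenchyme genes rose, and 4 tendon, 4 neuronal and 2 endothelial genes fell, while the counts of the other cell type lists were as without it. The list means of muscle, macrophage, tendon, neuron, Schwann cell and endothelium were each higher in every oral tissue library than in every tooth germ library, and those of surface epithelium and dental mesenchyme were lower. Myod1, which defines muscle precursors, read 8.71 to 9.13 in oral tissue and 7.46 to 7.52 in tooth germ, above the median of all probes in both. The part of muscle, epithelium or other cell types in the differences of the cyclins and inhibitors was not tested.

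Across the 6 arrays, likeness to each member was measured by Pearson's r among the genes above the upper quartile of gene means, as a description of 6 points that share the split between tissues. Ccnd1 was followed most closely by Evi5l, Klhl22 and Nrp1 (r = 0.996, 0.993 and 0.991), and of these Nrp1, a receptor for semaphorins and VEGF, fell by 0.92 (adjusted p = 9.26e-05). Ccnd2 was followed by D16Ertd472e, H2ac20 and Rbmx (r = 0.988 for each), and Ccnd3 by Tmem87a, Cav1 and Pdcd2l (r = 0.995, 0.994 and 0.993). Cav1, the caveolin gene, fell by 0.68 (adjusted p = 7.79e-04). Cdkn1a was followed by Cyth3, Pbrm1 and Osbpl9 (r of at least 0.971), and Cdkn1c by Smap2, Serinc3 and S1pr2 (r = 0.987, 0.981 and 0.980), none of which was called. Cdkn1b was followed by Cldn10, Thoc6 and Srsf4 (r = 0.998, 0.993 and 0.989), of which the claudin gene Cldn10 rose by 0.98 (adjusted p = 0.00239). Cdkn2c was followed by Naa40, Pdp2 and Gtpbp3 (r = 0.985, 0.982 and 0.980).

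**Figure D4:**
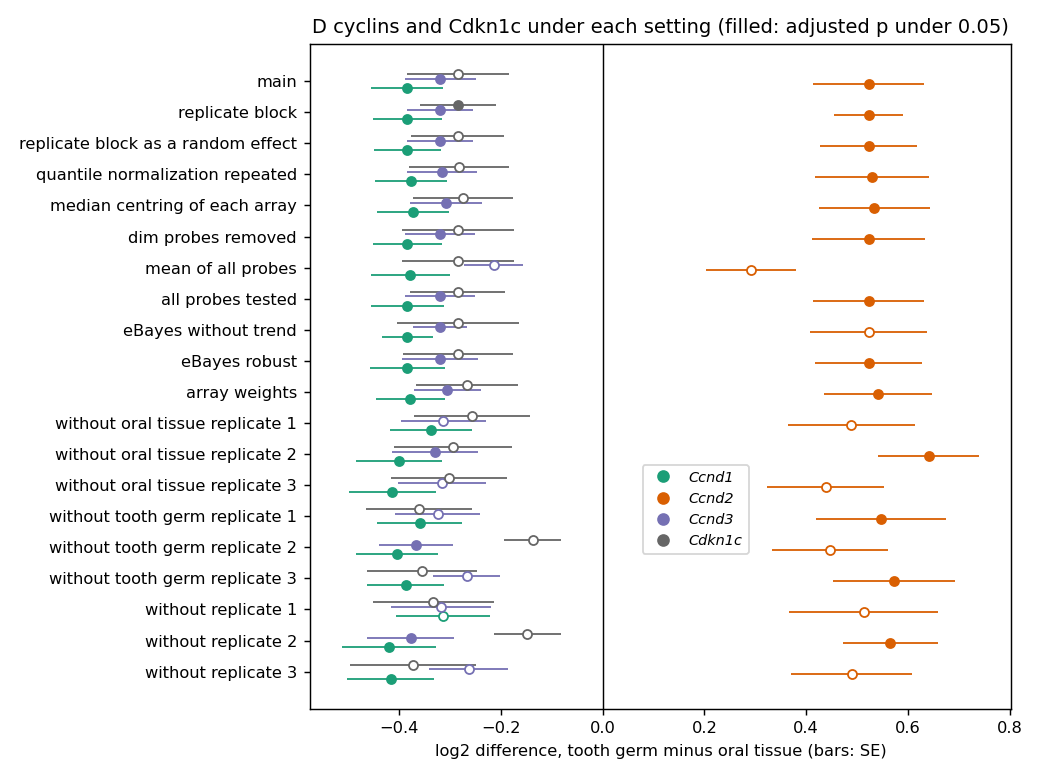
Log2 difference (tooth germ minus oral tissue) with its standard error for Ccnd1, Ccnd2, Ccnd3 and Cdkn1c in the fit as reported and under 19 alternatives, filled where the adjusted p was under 0.05. All points of Ccnd2 lie above 0 and all points of the other genes below 0, while the calls of Ccnd2 and Ccnd3 come and go and Cdkn1c is filled with the replicate block.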

How the data were processed

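RNA was measured on 6 Illumina bead arrays of 1 colour. Per the submitters' processing notes the authors used lumi 2.8.0. Its background correction and transformation are not given in the sources used here, and each array stands for 1 library. The deposited log2-scale signals had already been quantile normalized (sorted columns differed by at most 0.000827). Whether the scale is plain log2 or a variance-stabilising form close to it is unknown, so folds of dim genes may be understated. The replicates are biological pools, and the 6 arrays limit the precision.

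Probes were named from the platform annotation. Of 45281 probes 34885 had 1 symbol, 18 had several and 10378 had none, and 34807 matched RefSeq by Entrez identifier with 0 symbols changed. The brightest probe per gene was kept, and other probes came from a fit over all probes.

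The test was limma 3.58.1 under R 4.3.3 (lmFit, eBayes with trend) on 3 against 3 libraries, and p-values were adjusted over 19057 genes. Errors are moderated standard errors, and the test was tried on simulated data. Changes of 0.5 and 1 on the log2 scale, placed in genes above the median signal, were recovered in 64.2% and 94% of cases, with 9 false calls. The simulated arrays were drawn independently, with no effect of litter, so these figures do not cover the litter pairing of the real libraries. Changes under 0.5, the size of most differences given here, were not simulated. Libraries of 1 number share a litter per the labels, and their deviations from group means correlated at 0.233 to 0.413, against -0.267 to -0.0724 for other combinations. Deviations within a tissue sum to 0, so positive values for shared litters force the other combinations below 0 on balance. Litter as a block is the alternative fit.

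The named genes were the 7 members, up to 3 called genes (or 2 of smallest p) per pathway list, 4 label checks and 3 nearest patterns per member. Genes named beyond this rule (such as Cdk4, Pcna, Mdm2, Igf2, Rbl1, Rbl2, Hes1, Dkk4, Ibsp and Matn3) were chosen after their values were seen. Those named for a dim signal (Cdkn2b, Ccnb2, Bub1, Mycn, Gli1, Foxo4, Fgf4, Fgf20, Bmp2, Edar, Msx2 and Slit1) were chosen likewise. Members and lists were chosen with earlier results of these data known. List genes without a probe of 1 symbol were not analysed here. Alternatives were the litter block (fixed or random), other normalizations, probe rules, variance models and array weights, and leaving out libraries or litters. An offset before logarithms applied to linear values and was not run.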

Additional observations from a re-analysis of the deposited data

How the results depend on the processing

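Over 19 alternatives no member changed direction. With the replicate block, which pairs libraries by litter, 1693 genes were called against 1107 (736 against 456 higher), Cdkn1c was called (-0.28), and 4 members were called in place of 3, with no other member's call changed. With litter as a random effect 1430 genes and 3 members were called, and Cdkn1c was not (adjusted p = 0.0892). With the mean of all probes 1 member was called, and Ccnd2 (0.29) and Ccnd3 (-0.21) were not. Without the variance trend Ccnd2 (0.52) was not called. When libraries or litters were left out, the count of genes called ran from 549 to 1025 (195 to 368 higher and 354 to 663 lower), and the members called from 0 to 3. The count was lowest without litter 1, followed by litter 3 (668) and tooth germ library 2 (734). Under the same removals Ccnd1 ran from -0.42 to -0.31, Ccnd2 from 0.44 to 0.64 and Ccnd3 from -0.38 to -0.26, and Cdkn1c from -0.37 to -0.14. These removals also leave fewer arrays in the fit. The cause of the other changes was not tested. Dim probes such as those of Cdkn1b lie close to the median of all values, where signal over background limits what can be seen.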
